A study of Rattus norvegicus with 4 samples.

Results

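The genes of cholesterol and fatty acid metabolism were described in NR8383 cells exposed to Printex90. They were taken from a list of 53 genes of sterol synthesis, sterol uptake and efflux, fatty acid synthesis and oxidation, and lipid droplets, by matching the RefSeq accession of each array probe to the rat gene. Of these, 52 were on the array, with 65 probes in all, among 16581 named genes. Plin3, which coats lipid droplets, had no matched probe and was not analysed here.

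NR8383 is a macrophage line from the lung lavage of a normal rat, and its cultures hold adherent and floating cells. Printex90 is a commercial carbon black, given at the labelled dose of 0.9 cm2/cm2 for 4 h, with the abbreviation ALI in the titles. The cells were at 20 passages, and total RNA of 4 cultures, which the series design calls biological replicates, was measured on 1 array each. Only exposed cultures entered, and unexposed cells were not analysed here. The values therefore describe exposed cells, and no effect of the particles was measured.

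Cells make cholesterol from acetyl-CoA through the mevalonate pathway, whose early steps also supply isoprenoids. When membrane sterol is low, SCAP carries the SREBP transcription factors from the endoplasmic reticulum to the Golgi, where they are cleaved and released to switch on sterol and fatty acid synthesis genes, whereas INSIG proteins hold SCAP back when sterol is plentiful. Alveolar macrophages recycle surfactant lipid, export cholesterol through ABC transporters, store esters in lipid droplets and burn fatty acids in mitochondria.

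In the exposed cells the sterol branch was present throughout, while part of the fatty acid synthesis branch gave no clear signal. A gene was called detected on an array when a spot of any of its probes was marked well above background by the scanner software. On all 4 arrays, 47 of the 52 genes (90.4%) were detected, against a background of 50.8% of all named genes. The count was 47 on each array taken alone, and no member was detected on only some of the arrays, which happened for 12.3% of all named genes. The 5 genes detected on no array, against a background of 36.9%, were Fasn, Scd, Fads1, Fads2 and Lipe. By role, detection on all arrays was complete for the 5 regulators, the 16 sterol synthesis genes, the 6 genes of cholesterol handling and the 10 genes of fatty acid activation and oxidation. It was 5 of 9 for fatty acid synthesis and elongation (55.6%), near the 50.8% of all named genes. For lipid droplets it was 5 of 6 (83.3%). The list was chosen with earlier results of these data known, and no test of it was made.

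The regions before the transcription start of 4 genes are shown, 2 of genes detected on all arrays (Hmgcs1 and Insig1) and 2 of genes detected on none (Fads1 and Scd), because all 4 are known SREBP targets. Each covers the 250 bases before the RefSeq start in GRCr8, 5′ to 3′ on the gene's strand. Capitals mark CCAAT (bound by NF-Y, a partner of SREBP), GGGCGG (the GC box, bound by SP1) and CACGTG (the E-box), each searched on both strands. The positions were chr2:53382054-53382303 (plus strand) for Hmgcs1, chr4:8057770-8058019 (minus strand) for Insig1, chr1:216252442-216252691 (plus strand) for Fads1 and chr1:253231732-253231981 (minus strand) for Scd.
Hmgcs1: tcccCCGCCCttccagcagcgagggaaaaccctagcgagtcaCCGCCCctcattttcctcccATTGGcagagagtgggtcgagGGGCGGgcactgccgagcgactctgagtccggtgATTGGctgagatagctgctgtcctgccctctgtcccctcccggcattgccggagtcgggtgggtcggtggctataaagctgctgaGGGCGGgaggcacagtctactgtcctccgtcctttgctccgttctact
Insig1: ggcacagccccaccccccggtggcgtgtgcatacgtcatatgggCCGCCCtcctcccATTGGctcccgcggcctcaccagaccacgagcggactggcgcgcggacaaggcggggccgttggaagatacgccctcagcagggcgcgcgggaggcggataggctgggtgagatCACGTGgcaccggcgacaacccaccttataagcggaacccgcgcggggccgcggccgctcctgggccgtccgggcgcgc
Fads1: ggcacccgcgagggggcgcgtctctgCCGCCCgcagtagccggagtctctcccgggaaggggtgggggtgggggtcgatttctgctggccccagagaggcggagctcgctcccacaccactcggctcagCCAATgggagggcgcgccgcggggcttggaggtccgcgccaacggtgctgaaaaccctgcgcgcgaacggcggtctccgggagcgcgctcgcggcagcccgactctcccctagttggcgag
Scd: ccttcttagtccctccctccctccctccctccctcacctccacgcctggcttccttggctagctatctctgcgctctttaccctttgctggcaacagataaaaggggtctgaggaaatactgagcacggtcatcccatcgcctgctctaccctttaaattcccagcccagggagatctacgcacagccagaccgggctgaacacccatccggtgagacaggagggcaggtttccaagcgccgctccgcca
By the letters searched, Hmgcs1 held 2 CCAAT and 4 GC boxes, Insig1 held 1 of each with 1 E-box, and Fads1 held 1 CCAAT and 1 GC box. In Scd none of the 3 motifs was in the window. Thus a detected and an undetected gene could carry the same letters.

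A RefSeq promoter was matched for 41 of the 52 genes. CCAAT was in that of 25 (61.0%), and of 11 of the 13 matched sterol synthesis genes (84.6%), against 37.2% of the 7040 detected genes with a promoter and 34.0% of all 33469 promoter windows. The GC box was in 70.7% of the matched members and 84.6% of the matched sterol genes, against 58.6% of the detected genes and 30.5% of all windows. The E-box was in 19.5% of the matched members and in 1 of the 13 matched sterol genes (7.69%), against 8.47% of the detected genes and 5.59% of all windows. The full sterol regulatory element was in the window of no member, in 0.0284% of the detected genes and in 0.105% of all windows. Its core TCACNCCAC was in no member, 1.04% of the detected genes and 0.974% of all windows. Neither the exact DR1 element of PPAR and RXR nor the exact DR4 element of LXR and RXR was in a member's window. They were in 0.0426% and 0% of the detected genes, and in 0.0508% and 0.00299% of all windows. At shares this low, the lack of a match among 41 genes says little about them. These are matches of letters, and binding was not measured.

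**Figure D1:**
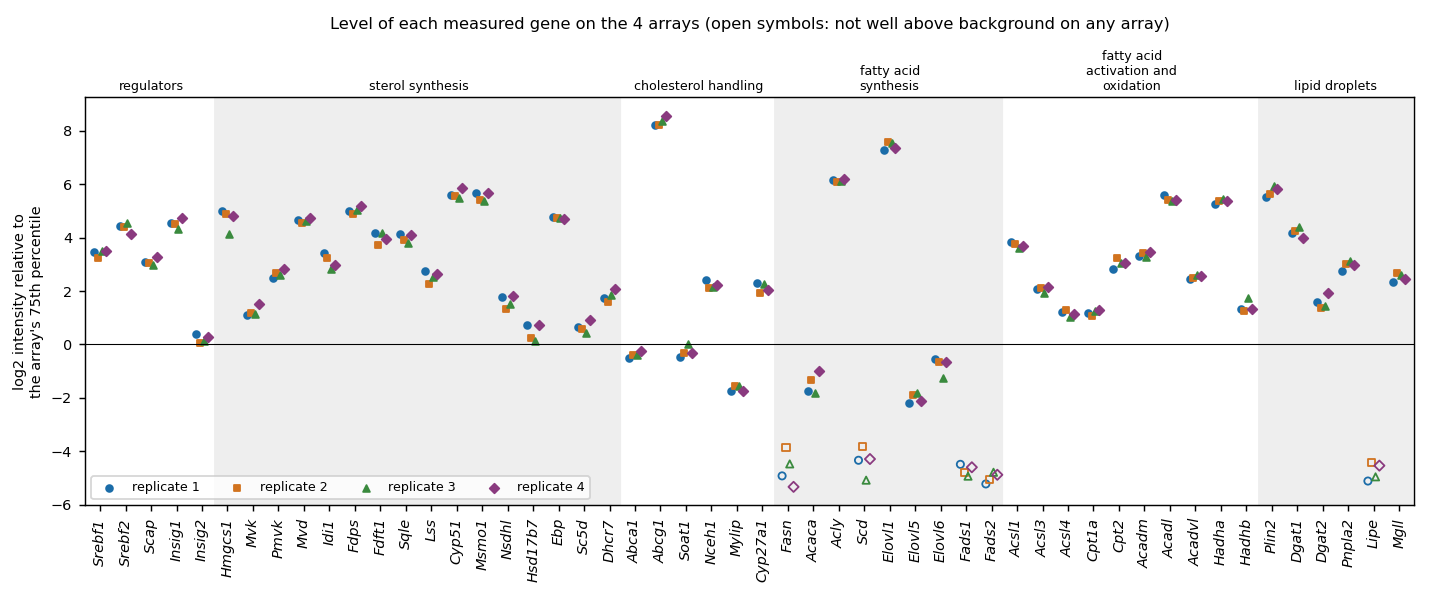
Level of the 52 measured genes on each of the 4 arrays, as log2 intensity relative to the array's 75th percentile, in 6 role groups. Filled symbols mark the 47 genes detected on all 4 arrays, and open symbols mark Fasn, Scd, Fads1, Fads2 and Lipe, which lie at the bottom of the plot.

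Levels are given below as log2 intensity relative to the array's 75th percentile over all probes, so that 0 lies at that percentile. They come from the probe with the highest mean among a gene's probes, and levels of different genes rest on different probes and are not ranked. The 75th percentile was an intensity of 83.8 to 127 on the 4 arrays, and 8917 to 9985 named genes were detected per array. No spot was saturated. All arrays shared 1 slide and 1 scan. Of 12 macrophage markers 11 were detected on all arrays, with Adgre1 on 2, whereas 0 of 8 epithelial markers were. Adipocyte markers gave 3 of 7 (Cfd, Retn and Fabp4), and Adipoq, which defines fat cells, was detected on none. Hepatocyte markers gave 1 of 8 (Apoc3), steroidogenic cells 1 of 8 (Cyp21a1), fibroblasts 2 of 8 (Dcn and Fap) and endothelium 3 of 7 (Cdh5, Pecam1 and Vwf). Outside the macrophage list, Hnf4a and Col1a2 were detected on 3 arrays each, Esam on 2, and Krt8 and Cyp17a1 on 1 each. The part of such cells or transcripts in the lipid genes' signal was not tested. As these are bulk cultures, fewer cells with a transcript and less of it per cell cannot be told apart.

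The 5 regulators were all detected. Srebf2, whose protein mainly drives sterol synthesis genes, had levels of 4.42, 4.39, 4.54 and 4.13 on replicates 1 to 4, a mean of 4.37 ± 0.17 (SD, n = 4). It was the most variable of the 5, with replicate 4 the lowest. Srebf1, whose protein mainly drives fatty acid synthesis genes, had 3.46, 3.22, 3.50 and 3.51 (3.42 ± 0.14), so that replicate 2 stood below the other three. A second probe of Srebf1 read 0.17, 0.20, 0.22 and 0.49, and there replicate 2 was not the lowest. Thus Srebf1 was detected by both probes, while the low value of replicate 2 rested on one.

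Insig1, itself a target of the SREBP proteins it restrains, had levels of 4.55, 4.50, 4.33 and 4.73 (4.53 ± 0.16). Its second probe read 1.49, 1.46, 1.71 and 1.76, and both probes were highest on replicate 4. Scap had 3.10, 3.03, 2.96 and 3.26, the smallest SD of the group (0.13). Insig2, the relative of Insig1 that does not depend on SREBP in the same way, had 0.38, 0.06, 0.13 and 0.28. Its only spot lies in a region of the array that was bright on replicate 4, which was not its highest array.

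All 16 sterol synthesis genes were detected on every array, from the first committed steps to the last reductase. In the mevalonate steps, Hmgcs1, which makes HMG-CoA, had levels of 4.98, 4.88, 4.15 and 4.81 (4.70 ± 0.38), the largest SD of the group. Replicate 3 lay below the other three arrays by 0.66 or more on the log2 scale. The mevalonate kinase gene Mvk had a mean of 1.23 ± 0.19, Pmvk, which adds the second phosphate, 2.65 ± 0.13, and the decarboxylase gene Mvd 4.64 ± 0.07 (SD, n = 4 for all). Idi1, which isomerises the isoprene unit, had 3.44, 3.25, 2.82 and 2.98 (3.12 ± 0.27). Its second probe read 3.09, 2.59, 1.60 and 2.32, so that both probes were highest on replicate 1 and lowest on replicate 3. The second probe's single spot lies in a region bright on replicate 4. Fdps, which makes farnesyl diphosphate, had 4.99, 4.87, 5.03 and 5.17 (5.01 ± 0.12).

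At the branch into sterols, the squalene synthase gene Fdft1 had levels of 4.18, 3.73, 4.17 and 3.93 (4.01 ± 0.21). Sqle, the squalene epoxidase and a rate-limiting step, had 4.13, 3.89, 3.78 and 4.09 (3.97 ± 0.16), with replicates 1 and 4 above the other two. Lss, which closes the ring to lanosterol, had a mean of 2.55 ± 0.22 (SD, n = 4), and its 2 probes gave means of 2.55 and 2.40. Thus the entry into sterols was measured clear of the background on each array.

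The enzymes from lanosterol to cholesterol followed. The demethylase gene Cyp51 had levels of 5.58, 5.56, 5.47 and 5.86 (5.62 ± 0.17), and its second probe 4.83, 4.63, 4.46 and 4.88, with both probes lowest on replicate 3 and highest on replicate 4. Msmo1, the methyl sterol oxidase, had 5.67, 5.39, 5.35 and 5.69 (5.53 ± 0.18), so that replicates 1 and 4 lay above the other two. Ebp, a sterol isomerase, had 4.78, 4.74, 4.73 and 4.70, the smallest SD of all 47 detected genes (0.033). The remaining means were 1.60 ± 0.22 for Nsdhl and 0.46 ± 0.31 for Hsd17b7, which take part in removing methyl groups from the sterol ring, 0.64 ± 0.21 for the desaturase gene Sc5d and 1.81 ± 0.21 for Dhcr7, the last reductase (SD, n = 4 for all). The 2 probes of Hsd17b7 gave means of 0.46 and -0.86, both highest on replicate 1 and lowest on replicate 3.

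The sterol genes tended to be high on the same arrays under the 75th percentile. Their median deviation from each gene's own mean was 0.10, -0.08, -0.10 and 0.16 on replicates 1 to 4, against 0.03, -0.02, 0.03 and -0.03 for all 8424 detected genes. Of the 16 genes, 9 were highest on replicate 4 (background 20%) and 7 on replicate 1 (background 31%), and 0 on replicate 2 (background 17.6%) or replicate 3 (background 31.5%). The median deviations kept their signs under quantile normalization, under the 75th percentile of detected probes and with normexp, where they were 0.05, 0.05 and 0.04 on replicate 1, -0.11, -0.13 and -0.17 on replicate 3 and 0.22, 0.21 and 0.28 on replicate 4. With the array median they were 0.19, -0.34, 0.33 and -0.10, so the signs of replicates 3 and 4 turned. That scaling moved all detected genes to 0.12, -0.28, 0.46 and -0.28, and relative to these the sterol genes lay lower on replicate 3 and higher on replicate 4 as before. Over all 47 detected members, 13, 4, 10 and 20 were highest on replicates 1 to 4, and 13, 15, 16 and 3 were lowest, against backgrounds for the lowest array of 20.9%, 26.7%, 22.5% and 29.8%. Quantile normalization left 2, 1, 1 and 12 of the 16 genes highest on replicates 1 to 4. The shares of all detected genes under that scaling were 25.4%, 20.6%, 25.2% and 28.8%. Thus the count on replicate 1, above its background under the 75th percentile, lay below it with quantile normalization, while that on replicate 4 lay above it under both. The pattern was noticed in these values, replicates of 1 group have no order, and its cause was not tested. Bright regions held 3.02% of the spots of replicate 4 and 2.84% of those of replicate 3. Of the sterol genes, they held only some spots of the probes of Cyp51, Ebp and Sqle, each printed 10 times, and the second probe of Idi1. Without these regions the span between arrays was 0.24, against 0.26 with them. The part of these regions in the pattern was not tested.

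**Figure D2:**
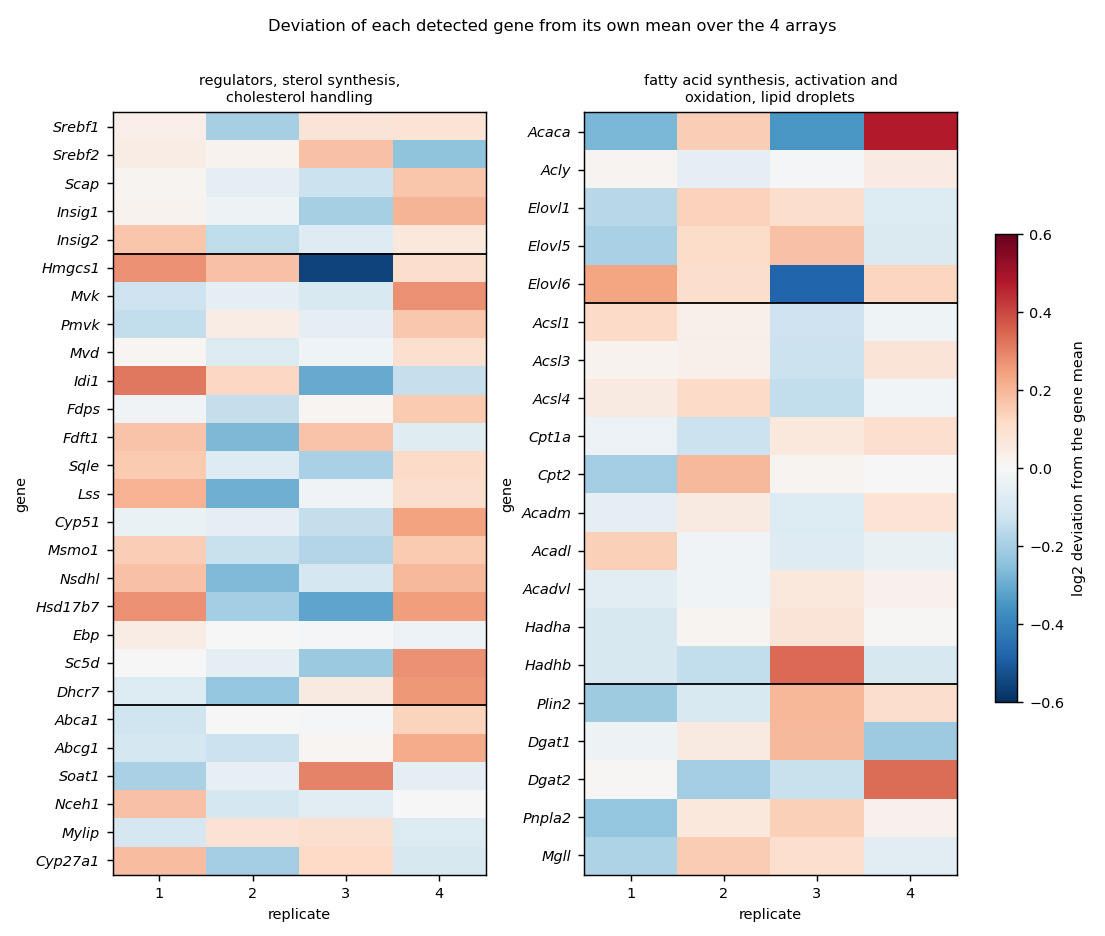
Deviation of each of the 47 detected genes from its own mean over the 4 arrays, in log2 units, with genes in rows, replicates in columns and lines between role groups. Hmgcs1 has the lowest value on replicate 3 (-0.56) and most sterol synthesis genes are red on replicate 4, whereas Ebp and Acly are nearly white throughout.

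Probes of 7 members were printed 10 times per array, which allowed the difference between arrays to be set against the spread of spots within an array. The moderated F test of limma over the 4 arrays was fitted on all 1350 probes with 3 or more spots per array. In it 5 of the 7 members had an adjusted p under 0.05, against a background of 82.1% of those probes. A call was thus common, and it compares arrays, not conditions. The array means of Msmo1 spanned 0.33 log2 units, or 1.26-fold (adjusted p = 5.04e-09, limma), with spot SDs of 0.067 to 0.12. Sqle spanned 0.35 or 1.27-fold (adjusted p = 7e-06), Cyp51 0.38 or 1.30-fold (adjusted p = 1.05e-05) and Fdps 0.30 or 1.23-fold (adjusted p = 2.58e-05) in the same limma fit. Acadl spanned 0.22 or 1.17-fold (adjusted p = 0.0163, limma). For Ebp the span was 0.079 (adjusted p = 0.701, limma) and for Acly 0.10 (adjusted p = 0.451, limma). The median span over the 1350 probes was 0.31. The Acadl call was lost without replicate 1 (adjusted p = 0.754, limma) and the Cyp51 call without replicate 4 (adjusted p = 0.275, limma). Keeping outlier spots also ended the Cyp51 call (adjusted p = 0.0944, limma), and normexp that of Acadl (adjusted p = 0.211, limma). Acly was called under quantile normalization (adjusted p = 0.0149, limma), with normexp (adjusted p = 0.0112, limma) and with the array median (adjusted p = 6.46e-14, limma), and Ebp with the array median (adjusted p = 2.76e-13, limma).

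**Figure D3:**
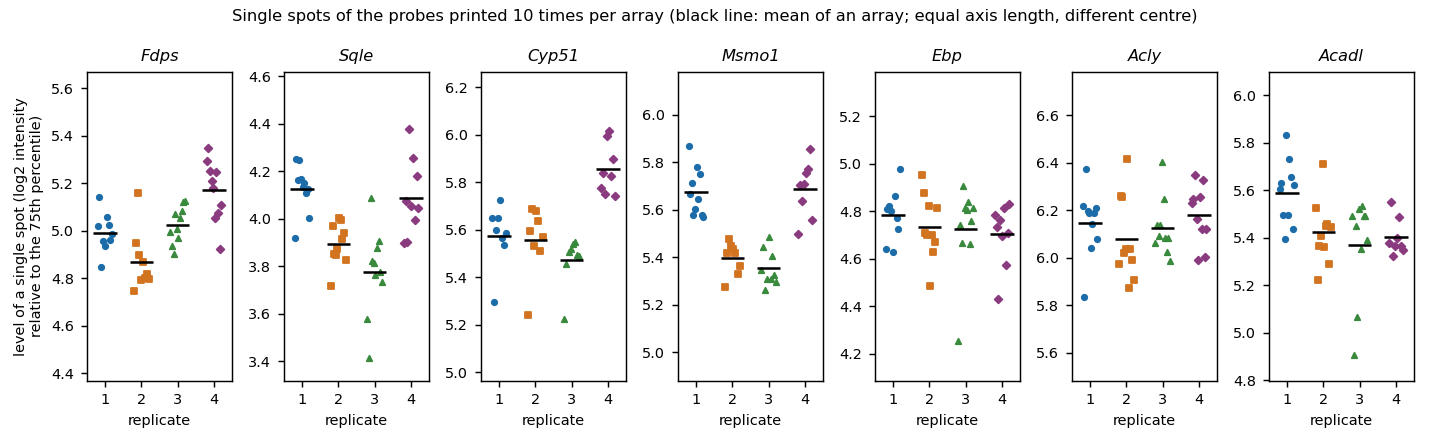
Level of each single spot, in log2 intensity relative to the 75th percentile, for the 7 genes whose probe was printed 10 times per array, by replicate, with the array mean as a black line. The spots of Msmo1 on replicates 1 and 4 lie above those on replicates 2 and 3, while those of Ebp and Acly overlap on all 4 arrays.

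Cholesterol handling was represented by all 6 measured genes. Abca1, which loads cholesterol onto lipid-poor apolipoprotein, had levels of -0.51, -0.40, -0.40 and -0.26, the smallest SD of the group (0.10). Abcg1, which exports cholesterol to mature lipoprotein particles and is needed for surfactant balance in alveolar macrophages, had 8.23, 8.21, 8.35 and 8.56 (8.34 ± 0.16). Both exporters were highest on replicate 4, and in intensity Abcg1 reached 47879 there. Soat1, which esterifies cholesterol for storage, had -0.48, -0.33, 0.01 and -0.34 (-0.28 ± 0.21), with replicate 3 the highest. Nceh1, a hydrolase of stored cholesteryl esters, had a mean of 2.24 ± 0.12, and Cyp27a1, the mitochondrial sterol hydroxylase, 2.13 ± 0.18 (SD, n = 4 for both). Mylip, the ubiquitin ligase that removes lipoprotein receptors, had a mean of -1.66 ± 0.11 (SD, n = 4). Genes of ester formation, ester breakdown and export were thus all measured in the same cells.

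In fatty acid synthesis 4 of the 9 measured genes were detected on no array, while 36.9% of all named genes were detected on none. Acly, which splits citrate to cytosolic acetyl-CoA, had levels of 6.15, 6.08, 6.13 and 6.18 (6.13 ± 0.04), the smallest SD of the group. Acaca, the carboxylase that commits acetyl-CoA to fatty acids, had -1.73, -1.32, -1.81 and -0.99 (-1.46 ± 0.38), the largest. Its second probe read -1.92, -2.16, -2.04 and -2.22, and was lowest on replicate 4, where the first was highest. Acaca was therefore detected by both probes, whereas its differences between arrays were not shared by them.

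Fasn, the fatty acid synthase that builds palmitate from the products of these enzymes, was not well above background on any array. Its intensity was 3.29, 5.73, 4.55 and 3.16, where negative control spots had a median of 2.91, 2.72, 3.18 and 2.82 and a maximum of 3.83, 3.59, 3.92 and 3.46. The stearoyl-CoA desaturase gene Scd, which makes oleate, had intensities of 4.93, 5.89, 2.99 and 6.51. Both thus lay close to the negative controls, above their maximum on some arrays and below it on others.

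The desaturases of polyunsaturated fatty acids were not well above background either. Fads1 had intensities of 4.44, 3.02, 3.31 and 5.25, and Fads2 had 2.67, 2.52, 3.67 and 4.32. Each of these 4 undetected genes had 1 probe with 1 spot, so a probe that hybridises poorly cannot be told apart from a transcript that is scarce. By the less strict flag of a positive and significant signal, which 61.7% of all named genes carried on all 4 arrays, Scd passed on 3 arrays and Fasn, Fads1 and Fads2 on 2 each.

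The 3 elongase genes among the members were detected. Elovl1, which extends saturated very long chains, had a mean level of 7.44 ± 0.15 (SD, n = 4). Elovl5, which extends polyunsaturated chains, had -2.21, -1.90, -1.84 and -2.10, intensities of 21.5, 22.4, 28.3 and 29.7. Its second probe was well above background on 2 of the 4 arrays. Elovl6, which extends palmitate, had -0.54, -0.67, -1.26 and -0.65 (-0.78 ± 0.32), with replicate 3 the lowest. The second probe of Elovl6 was well above background on none, at -4.24, -4.59, -4.95 and -3.23, and the mean over both probes was -2.52. With every probe of a gene required to pass, Elovl5 and Elovl6 were lost and 45 of the 52 genes were detected, against a background of 45%.

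**Figure D4:**
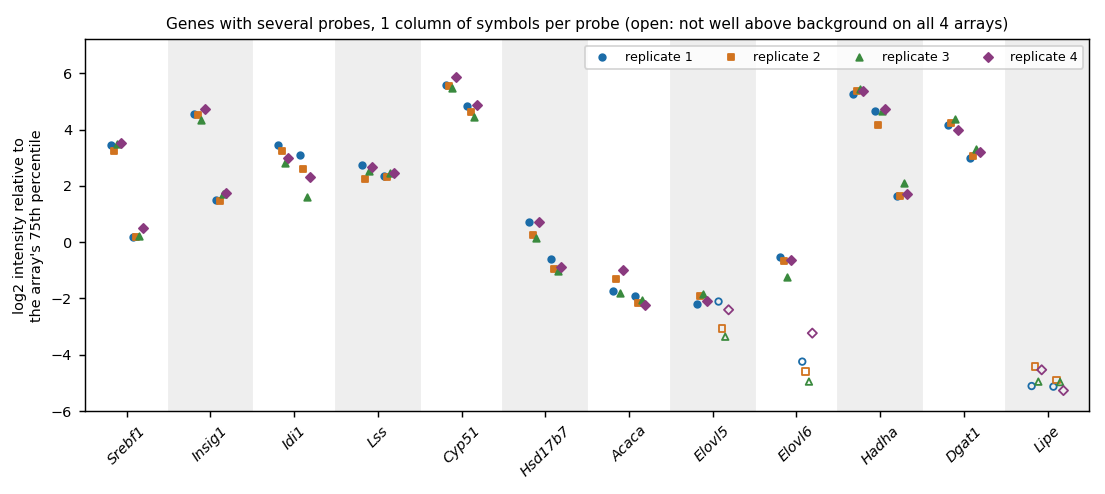
Levels of the 12 genes with several probes, in log2 intensity relative to the 75th percentile, with 1 column of 4 symbols per probe. Open symbols mark probes not well above background on all 4 arrays, namely 1 of Elovl5, 1 of Elovl6 and both of Lipe, and the probes of 6 genes lie over 1 log2 unit apart.

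Probes of one gene often differed in level. Of the 12 genes with several probes, 6 had probe means over 1 log2 unit apart, led by Hadha with 3.58, Elovl6 with 3.47, Srebf1 with 3.15 and Insig1 with 2.92. Among the 11 of these genes that were detected, 2 (18.2%) had a probe that was not detected on all arrays, against a background of 40.4%. The probes of 5 of the 12 genes were lowest on the same array, namely Idi1, Lss, Cyp51, Hsd17b7 and Elovl6. A level therefore says that a transcript was seen, and its size is that of a probe.

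All 10 genes of fatty acid activation and oxidation were detected on every array, and they varied little. Their median SD was 0.10, against 0.165 for all detected genes. Acsl1, which activates long-chain fatty acids by joining them to coenzyme A, had levels of 3.84, 3.76, 3.60 and 3.70 (3.73 ± 0.10). Its relatives Acsl3 and Acsl4, the second with a preference for arachidonate, had means of 2.07 ± 0.09 and 1.17 ± 0.11 (SD, n = 4 for both). All 3 of these ligase genes were lowest on replicate 3. Cpt1a, the rate-limiting carnitine transferase that admits fatty acids to mitochondria, had 1.16, 1.07, 1.26 and 1.30 (1.20 ± 0.10), from a single spot in a region bright on replicate 4. Cpt2, its partner inside the mitochondrion, had a mean of 3.03 ± 0.16 (SD, n = 4). Entry of fatty acids into mitochondria was thus represented by both transferases.

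Inside the mitochondrion, Acadm, the medium-chain dehydrogenase, had levels of 3.31, 3.42, 3.28 and 3.45 (3.37 ± 0.08). The long-chain dehydrogenase gene Acadl had a mean of 5.45 ± 0.10, and the very-long-chain gene Acadvl had 2.45, 2.50, 2.58 and 2.55, the smallest SD of the group (0.058). Hadha and Hadhb encode both chains of the trifunctional protein, which carries out the last steps of a cycle. Hadha had a mean of 5.36 ± 0.07 by its strongest probe (SD, n = 4), and its other probes gave means of 4.56 and 1.78. Hadhb had 1.32, 1.27, 1.76 and 1.32 (1.42 ± 0.23), the largest SD of the group, with replicate 3 standing above the others.

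Among the lipid droplet genes, 5 of 6 measured were detected. Plin2, the coat protein of droplets in macrophages, had levels of 5.52, 5.64, 5.93 and 5.83 (5.73 ± 0.19). Dgat1 and Dgat2 catalyse the last step of triglyceride synthesis. Dgat2 had 1.58, 1.37, 1.45 and 1.92 (1.58 ± 0.24), the largest SD of the group, with replicate 4 the highest. Dgat1 had a mean of 4.19 ± 0.17 (SD, n = 4) from a single spot in a region bright on replicate 4, and its other probe gave 3.14. Both acyltransferases were thus seen on every array, while their order of arrays differed.

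For breakdown, Pnpla2, the triglyceride lipase that starts lipolysis, had levels of 2.73, 3.03, 3.11 and 2.99 (2.96 ± 0.16). Mgll, which splits the last monoglyceride, had 2.33, 2.67, 2.62 and 2.45, the smallest SD of the group (0.16). Lipe, the hormone-sensitive lipase that acts between them in fat cells, was not well above background by either of its probes, with intensities of 2.88, 3.92, 3.26 and 5.48 for the stronger one. The first and last lipases of the chain were therefore detected and the middle one was not. The droplet genes were low on replicate 1, with median deviations of -0.19, 0.06, 0.14 and 0.03, and the sign on replicate 1 held under quantile normalization, both other percentile and median scalings and normexp, where it was -0.23, -0.23, -0.10 and -0.22. With the array median the 4 values were -0.10, -0.21, 0.58 and -0.23, beside 0.12, -0.28, 0.46 and -0.28 for all detected genes, and relative to these the directions were those of the 75th percentile. The small value on replicate 2 was -0.05 with normexp, -0.09 without the bright regions, -0.01 with the mean over probes, -0.01 without replicate 1 and -0.02 without replicate 4. That on replicate 4 was -0.05 without replicate 1, and -0.04 with outlier spots kept, beside -0.09 for all detected genes.

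Other genes of the same pathways were looked up from lists that hold none of the members. These lists, too, were chosen with earlier results of these data known, and no test of them was made. In the sterol list 12 of 15 measured genes were detected on all arrays, including Acat2, which condenses acetyl-CoA at the start of the pathway, at 3.32 ± 0.20 (SD, n = 4), and not Mbtps2, Cyp7b1 or Vldlr. Mbtps1, the first SREBP protease, had a level of 3.24 ± 0.22 (SD, n = 4), while Mbtps2, another protease of SREBP, was detected on none, at measured levels of -5.16, -4.97, -3.68 and -3.92. In the fatty acid synthesis list 9 of 15 were detected on all arrays, 3 on some and 3 on none, the last being Acacb, Elovl7 and Lpin1. Scd2, a second stearoyl-CoA desaturase, was well above background on 1 array, with levels of -4.78, -5.11, -4.59 and -2.45.

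In the oxidation list 16 of 20 were detected on all arrays, among them Acsl5 at 5.81 ± 0.07 and the carnitine carrier gene Slc25a20 at 2.93 ± 0.08 (SD, n = 4 for both). Acsl6, Ppara and Ppargc1a were among those detected on none. In the droplet list 10 of 13 were detected, with Abhd5, the activator of the Pnpla2 lipase, at 2.21 ± 0.15 (SD, n = 4), and Plin5, Fitm1 and Mogat2 were on none. The shares of these 4 lists were 80%, 60%, 80% and 76.9%, beside the 50.8% of all named genes.

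Replicates differed by about as much for these genes as for the rest. The median SD of the 47 detected members was 0.164, against 0.165 for all 8424 detected genes, and 26 of the 47 lay below the median of all detected genes. An SD over 0.3 was found for 4 members (8.51%), namely Acaca, Hmgcs1, Elovl6 and Hsd17b7, against a background of 14%. No member lay above the 95th percentile of all detected genes, an SD of 0.411. Each SD rests on 4 arrays, which limits its precision.

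**Figure D5:**
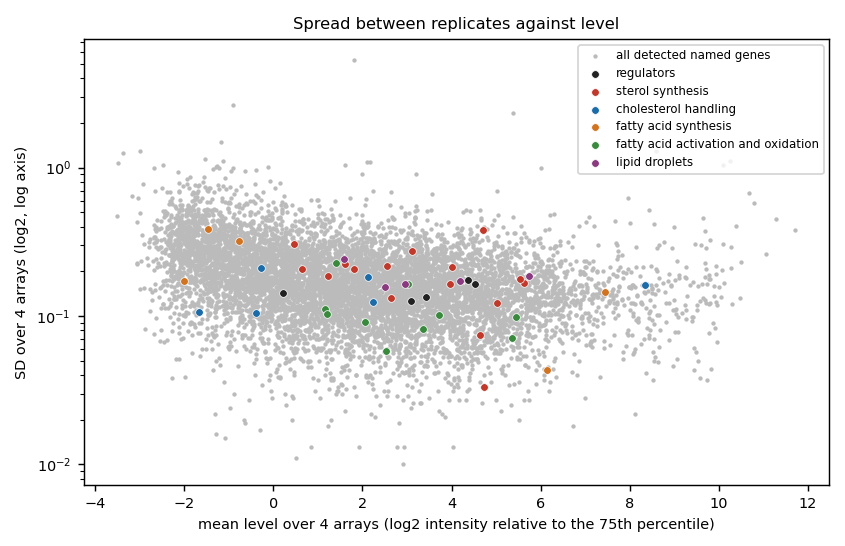
SD over the 4 arrays, on a log axis, against the mean level in log2 intensity relative to the 75th percentile, for the 47 detected members coloured by role and for all 8424 detected genes in grey. The members lie within the cloud, with Acaca and Hmgcs1 at the top (0.38 for both) and Ebp at the bottom (0.033).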

How the data were processed

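Total RNA of 4 exposed cultures was measured on 1-colour Agilent rat arrays. The deposited intensities, 1 linear value per spot, came from Feature Extraction 11.0.1.1 (Agilent), according to the submitters' processing notes. Per the file headers they are background-subtracted and not normalized between arrays. Raw median and local background intensities, also deposited, served one alternative.

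Spots marked as non-uniform or population outliers were left out. Log2 processed signals were averaged per probe and the array's 75th percentile was subtracted. Accessions were matched to RefSeq (GRCr8), naming 21109 of 45598 probes. Per the file headers rn4 was the build of the grid, and the only coordinates printed are those of RefSeq promoters. Where a probe had at least 3 spots, these entered limma 3.58.1 in R 4.3.3 singly (array as a factor, moderated F test, Benjamini-Hochberg, threshold 0.05), a method tested on simulated data. Python 3.11.15 did the rest.

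Blocks of 16 rows and 8 columns counted as bright if more than 10% of their unnamed probes' spots exceeded every other array by 1 log2 unit or more. Alternatives were the less strict flag, 3 of 4 arrays, all probes, outlier spots kept, bright blocks left out, quantile, array median and detected-probe percentile scaling, the mean over probes, no filter and each replicate left out. Normexp (offset 50) used median signals, as the planned mean signals are not among the columns used here, and was added later with the percentile scaling of the F test and the array counts of the sterol genes. The members and lists were chosen with earlier results of these data known. Most genes given array by array were fixed as key steps, the largest and smallest SD of each role group, and genes whose probes differed in detection. Insig2, Idi1, Fdps, Cyp51 and Msmo1 fall outside this rule and were also given array by array. So were the undetected Fads1, Fads2 and Lipe, and Mbtps2 and Scd2 of the other lists.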

Additional observations from a re-analysis of the deposited data

Results flagged for a closer look

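For 2 of the 52 measured genes 1 array stood far from the other 3, by a gap above Dixon's critical share of the gene's whole range. Such gaps were found in 5.35% of all detected genes, and chance gives about 1 in 20. For Hadhb, a chain of the mitochondrial trifunctional protein, replicate 3 lay above the others (1.76 against 1.32, 1.27 and 1.32 on replicates 1, 2 and 4), with a gap of 0.891 of the range. For Srebf1, the gene of a SREBP transcription factor, replicate 2 lay below (3.22 against 3.46, 3.50 and 3.51 on replicates 1, 3 and 4), with a gap of 0.842 of the range. The second probe of Srebf1 was lowest on replicate 1. The single spots of both genes lay outside the bright regions.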

How the results depend on the processing

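The count of members detected on all arrays was 47 with the less strict flag, 3 of 4 arrays, outlier spots kept and each replicate left out. It was 45 when all probes were required and 45 without bright regions, which removed the only spots of Cpt1a and Insig2. The median level of detected members was 2.96, and 6.54 with the array median, -0.44 with the 75th percentile over detected probes, 2.20 with normexp and 2.65 with the mean over all probes. The first 2 of these follow from the change of zero point. The median SD was 0.345 with the array median, an intensity of 13.9 to 22.8, and 0.143 to 0.181 under the other scalings and filters. The span between the highest and lowest array's median deviation, in the order of regulators, sterol synthesis, cholesterol handling, fatty acid synthesis, oxidation and lipid droplets, was 0.16, 0.26, 0.16, 0.27, 0.068 and 0.33, and with the array median 0.67, 0.67, 0.83, 0.63, 0.66 and 0.81. With normexp it was 0.41 for regulators, 0.45 for sterol synthesis and 0.21 for oxidation, which had 0.14 both with quantile normalization and with the detected-probe percentile, and the cause was not tested. Normexp also gave 0.10 for cholesterol handling and 0.17 for fatty acid synthesis, and the detected-probe percentile 0.25 for regulators. Leaving out each replicate gave 0.056 to 0.23 for fatty acid synthesis and 0.12 to 0.30 for lipid droplets, with the lowest value in both cases without replicate 1. It gave 0.041 for oxidation and 0.16 for sterol synthesis without replicate 4, 0.042 for oxidation without replicate 3 and 0.095 for cholesterol handling without replicate 3. With the array median 12 of the 16 sterol genes were highest on replicate 3, and 4 on replicate 1, beside 85.3% and 12.8% of all detected genes. The number of replicated probes called between arrays was 1108, and the alternatives gave 803 to 1274, and of the 7 members 4 to 7 were called. No paired analysis was possible because all arrays belong to 1 group. Genes with 1 spot on an array have no measure of error within it, and low signals near the negative controls limit what can be said of the undetected genes.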
